A study of Mus musculus with 4 samples.

Results

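The genes described here are 10 imprinted genes known for their part in growth, namely Igf2, H19, Dlk1, Meg3, Peg3, Cdkn1c, Mest, Grb10, Plagl1 and Igf2r. Their accessible regions were chosen by position alone: a peak of any library counted when it overlapped the body of a gene or its flanks of 50 kb, peaks sharing at least 1 bp were merged across libraries, and each merged region went to the nearest of the 10 genes. This gave 62 regions of 90239 in all. The outermost region inside the flank limit lay 48.65 kb from Cdkn1c and the next outside lay 50.03 kb from it.

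The samples were ATAC-seq libraries, in which the transposase Tn5 tags open DNA, of the mouse embryonic fibroblast line iMGT-Myh6-eGFP-MEF. All 4 libraries carried the inducible factors Mef2c, Gata4 and Tbx5 (MGT) and the Myh6-eGFP reporter, and all were taken at day 1 after induction with 1 μg/mL doxycycline, so no uninduced cells were compared. The groups were siChst7 (2 libraries), treated with an siRNA against the chondroitin sulfotransferase gene Chst7, and siControl (2 libraries), treated with a control siRNA. It is a single cell line, and the labels call the replicates biological without saying whether they were separate cultures, so any comparison measures the spread between these samples only. The lists held 74402 and 66165 peaks with siChst7 and 73902 and 75696 with siControl. Read totals are unknown, and siChst7 replicate 2 has the shortest list. Of 10 fibroblast marker genes, 8 had an accessible end, that is a peak no more than 1 kb from either end of the gene, in every library. The other 2 (Prrx1 and Lum) had none there. By the same measure, 0 of 4 endothelial, 1 of 4 immune, 1 of 4 epithelial, 2 of 4 cardiac and 3 of 4 neural markers had one. At annotated starts, Prrx1 had a peak in all 4 libraries. Of the non-fibroblast markers counted by their ends, Rbfox3, Tubb3 and Krt8 had none at a start. Myh6 had one in 2 libraries, Cd68 in 3, and Map2 and Tnnt2 in all 4.

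An imprinted gene is expressed mainly from a single parental allele, and the choice is set by DNA methylation laid down in the germ line at an imprinting control region. Genes expressed from the paternal copy, such as Igf2, Dlk1, Peg3, Mest and Plagl1, often promote growth, whereas those expressed from the maternal copy, such as H19, Cdkn1c, Igf2r and, outside the brain, Grb10, often restrain it. Many of them are highly active in embryonic tissue and decline after birth. The peak lists do not tell the parental alleles apart, and in bulk cells a region open in fewer cells cannot be told apart from a region less open in each cell.

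The annotated starts carried the main difference among the genes, and the start windows below are shown because they set start windows with a peak beside start windows without one. Each is the RefSeq sequence (GRCm38.p6, the assembly of mm10) from 250 bases before to 50 after the start, 5′ to 3′ on the strand of the gene, with CG dinucleotides, the sites of DNA methylation, in capitals. Windows that a peak overlapped in all 4 libraries were those of Plagl1 (chr10:13090582-13090881, plus strand), Igf2r (chr17:12769657-12769956, minus strand), Grb10 (chr11:12037371-12037670, minus strand) and Airn (chr17:12741061-12741360, plus strand), the antisense RNA gene that begins inside Igf2r. Windows with no peak in any library were, among others, those of Mest (chr6:30737800-30738099, plus strand), Peg3 (chr7:6730370-6730669, minus strand) and Igf2 (chr7:142658755-142659054, minus strand, the one of its 4 windows with the most CG).
Plagl1: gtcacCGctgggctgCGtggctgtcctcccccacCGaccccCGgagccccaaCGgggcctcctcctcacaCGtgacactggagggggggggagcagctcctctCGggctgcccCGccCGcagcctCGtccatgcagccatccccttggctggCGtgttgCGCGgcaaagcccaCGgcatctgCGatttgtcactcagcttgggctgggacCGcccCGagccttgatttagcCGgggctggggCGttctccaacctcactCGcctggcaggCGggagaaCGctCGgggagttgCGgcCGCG
Igf2r: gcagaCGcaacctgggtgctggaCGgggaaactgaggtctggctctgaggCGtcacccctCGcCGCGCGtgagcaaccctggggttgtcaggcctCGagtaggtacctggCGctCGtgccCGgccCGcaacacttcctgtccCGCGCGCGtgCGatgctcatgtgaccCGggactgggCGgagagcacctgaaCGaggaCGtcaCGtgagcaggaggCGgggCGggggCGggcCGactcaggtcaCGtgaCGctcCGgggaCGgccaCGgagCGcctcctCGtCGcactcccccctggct
Grb10: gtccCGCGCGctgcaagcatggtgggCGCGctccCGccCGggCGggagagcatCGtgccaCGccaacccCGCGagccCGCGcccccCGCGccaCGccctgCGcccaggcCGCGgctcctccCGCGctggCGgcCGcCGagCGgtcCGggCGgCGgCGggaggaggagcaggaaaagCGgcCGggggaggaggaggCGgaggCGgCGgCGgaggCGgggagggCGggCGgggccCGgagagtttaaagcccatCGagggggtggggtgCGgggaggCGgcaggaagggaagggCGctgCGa
Airn: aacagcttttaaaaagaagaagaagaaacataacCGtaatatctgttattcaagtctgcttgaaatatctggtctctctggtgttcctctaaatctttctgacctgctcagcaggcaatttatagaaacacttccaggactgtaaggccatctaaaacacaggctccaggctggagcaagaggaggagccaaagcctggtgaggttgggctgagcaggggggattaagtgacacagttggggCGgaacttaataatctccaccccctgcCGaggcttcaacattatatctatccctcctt
Mest: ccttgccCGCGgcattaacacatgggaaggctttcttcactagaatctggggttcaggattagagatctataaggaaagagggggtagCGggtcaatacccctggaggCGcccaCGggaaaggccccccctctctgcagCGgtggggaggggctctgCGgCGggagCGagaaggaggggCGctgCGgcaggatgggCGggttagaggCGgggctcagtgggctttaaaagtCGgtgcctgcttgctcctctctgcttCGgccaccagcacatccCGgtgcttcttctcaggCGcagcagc
Peg3: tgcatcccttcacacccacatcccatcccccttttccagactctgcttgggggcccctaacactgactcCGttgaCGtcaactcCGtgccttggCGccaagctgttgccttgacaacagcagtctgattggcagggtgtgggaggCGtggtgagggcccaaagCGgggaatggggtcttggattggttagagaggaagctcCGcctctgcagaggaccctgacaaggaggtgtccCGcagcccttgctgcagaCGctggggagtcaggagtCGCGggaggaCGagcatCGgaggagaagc
Igf2: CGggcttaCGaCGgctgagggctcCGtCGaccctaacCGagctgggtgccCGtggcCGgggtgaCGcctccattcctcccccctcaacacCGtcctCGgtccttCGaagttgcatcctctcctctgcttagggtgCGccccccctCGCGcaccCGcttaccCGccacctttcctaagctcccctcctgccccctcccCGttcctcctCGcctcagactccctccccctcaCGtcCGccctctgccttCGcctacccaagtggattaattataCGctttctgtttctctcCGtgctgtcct

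Start windows of Plagl1, Igf2r and Grb10 were accessible in all 4 libraries, and those of Igf2, Dlk1, Meg3, Peg3 and Mest were not called in any. The annotation table used here gave starts for 8 of the 10 genes. H19 and Cdkn1c were judged by their gene ends, and no library had a peak at either end of them. By gene ends, 3 of the 10 genes (Grb10, Plagl1 and Igf2r) were accessible in all 4 libraries and 7 in none, against 53.8% of all protein-coding genes with one. By start windows, it was 3 of 8 genes, against 50.2% of all protein-coding genes in the table. Among the genes compared, H19 (by ends) and Meg3 (by both measures) are non-coding, whereas both backgrounds hold protein-coding genes alone. With so few genes, these shares are a description and were not tested.

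Start windows differed widely in CG content. The windows of Grb10, Igf2r and Plagl1 with a peak held 45, 34 and 26 CG dinucleotides. Those printed above for Mest, Peg3 and Igf2, with no peak, held 17, 13 and 24. Among all 32851 start windows, 81.6% of those with 20 to 29 CG had a peak in all 4 libraries and 15.9% had none in any, which is the class of the Igf2 window. Of windows with 10 to 19 CG, the class of the Mest and Peg3 windows, 58.7% had a peak in all 4 and 37.3% had none. The Airn window went the other way, with 3 CG and a peak in all 4 libraries, a state found in 4.7% of windows with 0 to 4 CG. Allelic methylation was not measured here.

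**Figure D1:**
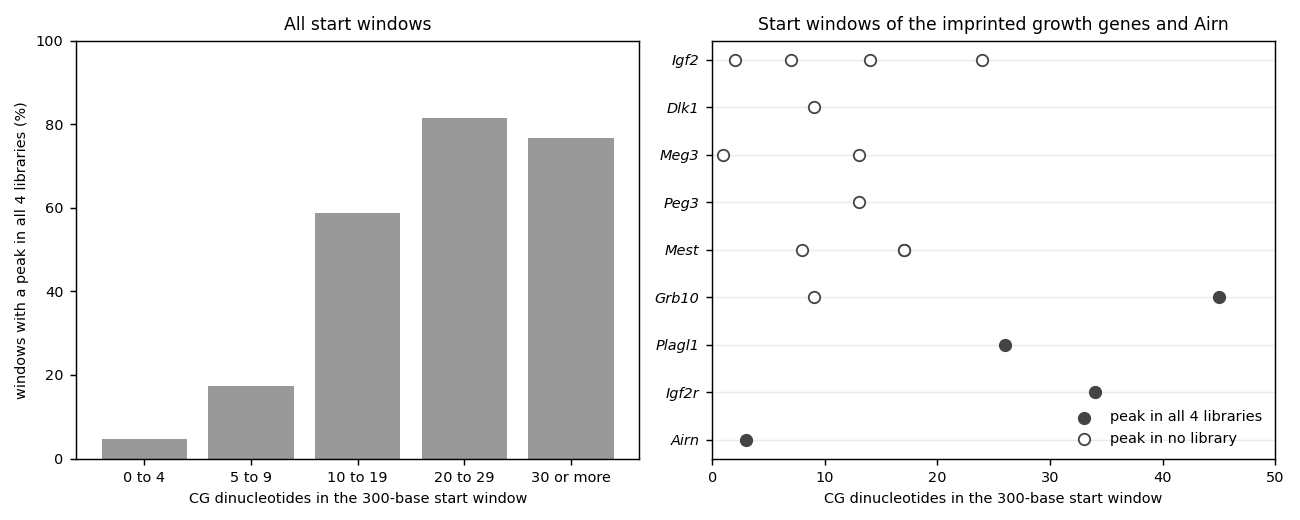
Left, share of all RefSeq start windows (300 bases) with a peak in all 4 libraries (y axis, %) by number of CG dinucleotides (x axis); right, CG number (x axis) of each start window of the imprinted growth genes with a start entry and of Airn, filled where all 4 libraries had a peak and open where no library had one. The windows of Grb10 (45), Igf2r (34) and Plagl1 (26) are filled, while the Igf2 window with 24 is open.

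Gene bodies were counted next, and a region over a start that reached into the body counted there too. Body and start counts are therefore not independent, and the only body region of Plagl1 was the one over its start. Of the 62 regions, 21 overlapped a gene body, and 6 of the 10 genes (Igf2, H19, Dlk1, Meg3, Peg3 and Cdkn1c) had no region of any library in theirs. Mest had a single one, called in siChst7 replicate 2 alone. Igf2r had 11 regions in its body and Grb10 8, and these are the longest of the 10 genes (87301 and 106930 bp). With their flanks included, they had 20 and 12 regions, together 32 of the 62. Among protein-coding genes in the length range of these 6 bare genes (2617 to 30734 bp), 28.6% had no region in the body, and 29.8% of all protein-coding genes had none. The range was set by the bare genes, so it is no background for all 10 genes. Igf2r, Grb10 and Plagl1 are longer, and H19 and Meg3 are non-coding. The longest empty stretches were 502.1 kb around Peg3 and 153.7 kb around Dlk1 and Meg3, which lie in the same one. Stretches at least as long held 11.5% and 16.2% of all protein-coding genes.

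**Figure D2:**
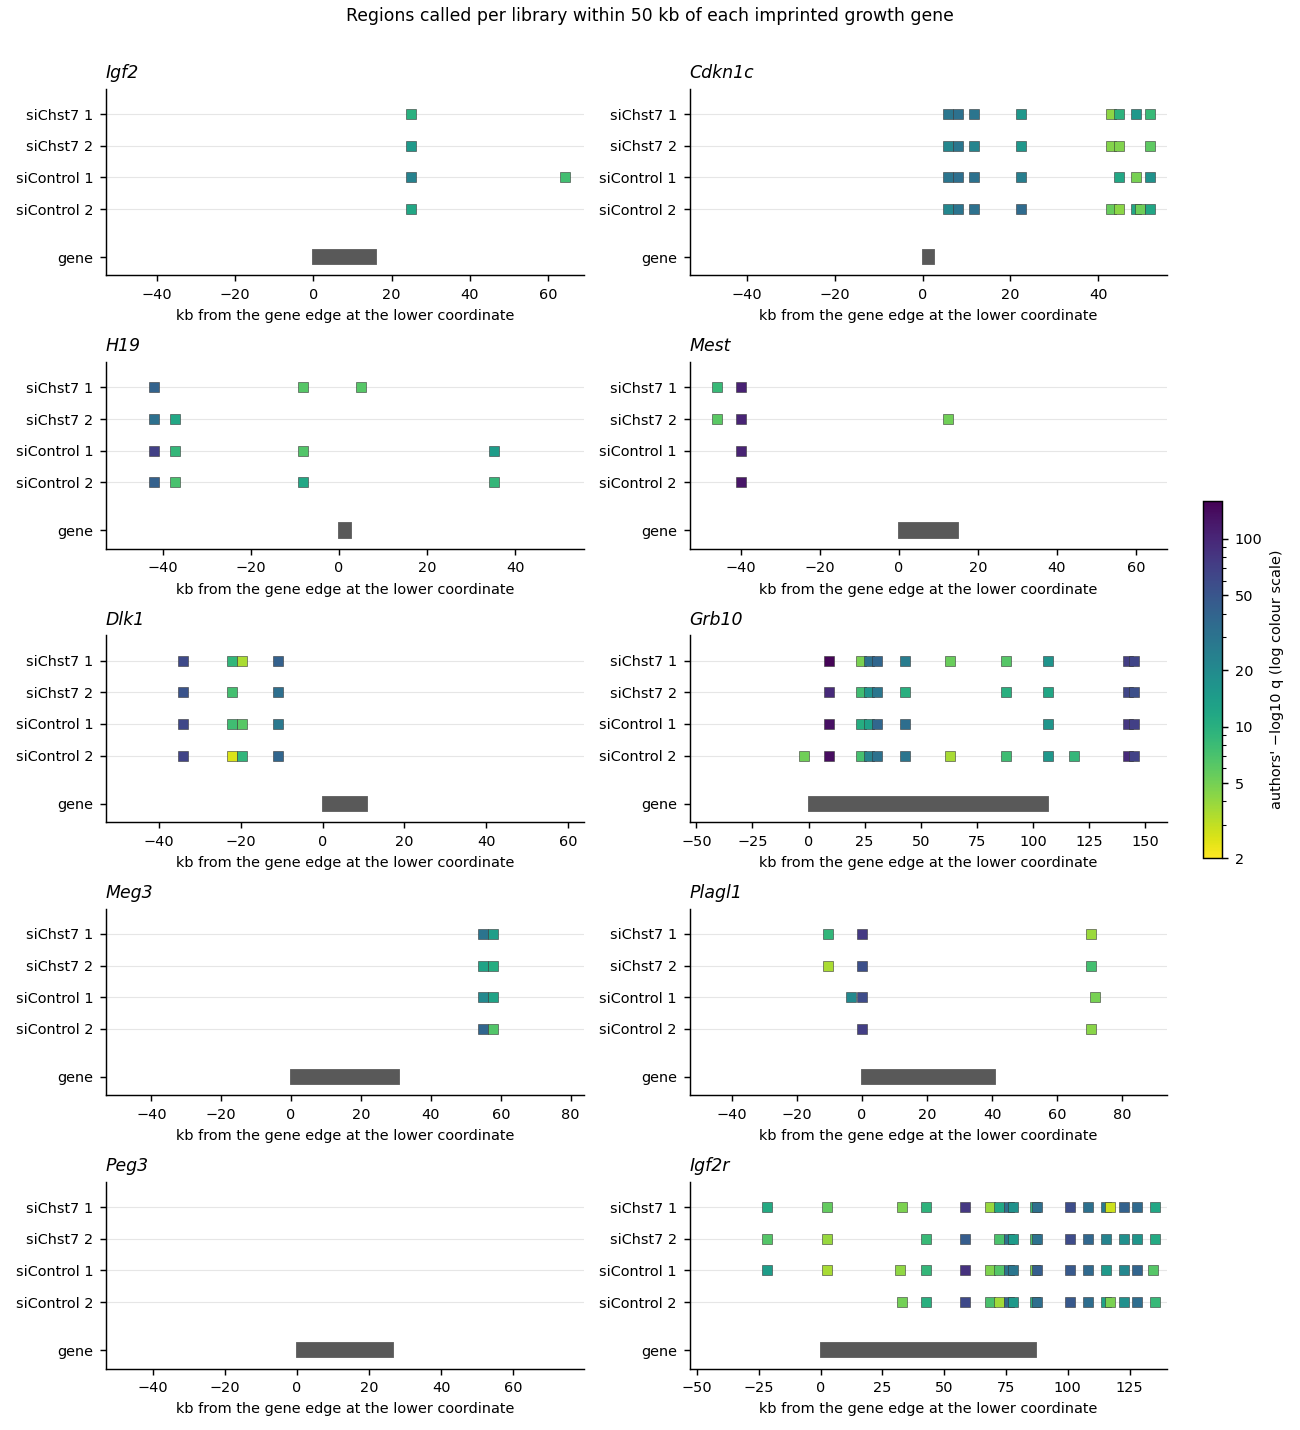
Each panel is one gene (grey bar, with kb from its edge at the lower coordinate on the x axis), and each row is a library, siChst7 above siControl; squares mark regions called in that library, coloured by the authors' −log10 q. The Peg3 panel is empty, the bodies of Igf2, H19, Dlk1, Meg3 and Cdkn1c are bare, and regions crowd over Grb10 and Igf2r.

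Igf2 encodes insulin-like growth factor 2, a fetal growth factor. Its 16049 bp body held no region, and its nearest one lay 8.75 kb beyond the gene edge that carries its outermost start (chr7:142675565-142676093). The authors' fold enrichment there, the pileup at the summit over the local background of the same library, was 6.28 and 8.69 with siChst7 and 9.93 and 7.10 with siControl. To compare libraries, the 55924 regions called in all 4 were ranked by fold enrichment within each library and given a percentile, so that the same regions are ranked everywhere. On this scale the Igf2 region stood at 22.4 and 47.4 with siChst7 and at 53.9 and 28.5 with siControl. The groups overlapped, and the replicates of each siRNA lay further apart than the group means (34.9 and 41.2). A second region, 48.0 kb away, was called in siControl replicate 1 alone.

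H19, the long non-coding RNA gene that shares its control region and its enhancers with Igf2, held 5 regions in its flanks and none in its body. A region 2.20 kb from the gene on the side facing Igf2 (chr7:142580350-142580807), the side on which the imprinting control region of the cluster is known to lie, was called in siChst7 replicate 1 alone, with a fold enrichment of 4.95 and a −log10 q of 6.31. On the other side, where the shared enhancers lie, a region 7.90 kb from the gene (chr7:142567218-142567633) had a fold enrichment of 4.95 in siChst7 replicate 1 and of 5.14 and 7.10 in siControl, and no call in siChst7 replicate 2. Another region, 32.4 kb towards Igf2 at the start of the non-coding gene Gm33148 (chr7:142610530-142610817), was called with siControl alone, at 7.88 and 6.04 fold and a −log10 q of 14.5 and 8.77, a call lost at a minimum of 10. The region called in all 4 libraries lay 41.4 kb away over the start of Mrpl23, a mitochondrial ribosomal protein gene. It stood at percentiles 43.0 and 48.3 with siChst7 and 67.6 and 48.6 with siControl, so both siChst7 values were below both siControl values, though siControl replicate 2 lay close to siChst7 replicate 2. The difference of the means was -12.5 points, -2.93 without siControl replicate 1 and -21.5 without siControl replicate 2.

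Igf2r encodes the receptor that takes IGF2 into the cell for breakdown, and Airn, transcribed from within it on the opposite strand, silences the paternal copy. Of the 20 Igf2r regions, 12 were called in all 4 libraries, 11 overlapped the body of Igf2r and 15 lay within Airn. The region over the Igf2r start (chr17:12769456-12770129) had fold enrichments of 9.19 and 9.73 with siChst7 and 11 and 9.62 with siControl. Its percentiles were 50.1 and 56.8 with siChst7 and 62.7 and 50.6 with siControl. The summits lay at 16, 18, 19 and 16 bases after the start, so the position was nearly the same in every library. At the Airn start the region was broader (chr17:12740296-12741745) and had fold enrichments of 10.1 and 8.93 with siChst7 and 11.7 and 10.0 with siControl. Its percentiles of 58.0 and 49.8 with siChst7 and 67.5 and 53.5 with siControl overlapped between the groups.

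Beyond the Igf2r start, 8 regions lay within Airn and outside Igf2r, and a pair of them met the mark of 10 points without overlap between the siRNAs. Of all regions called in all 4 libraries, 7.84% were higher with siChst7 by this mark and 7.91% lower. The region 27.9 kb from the gene (chr17:12797610-12798155) had fold enrichments of 9.13 and 9.88 with siChst7 and 6.87 and 6.78 with siControl. It stood at percentiles 49.5 and 57.8 with siChst7 and at 27.1 and 25.8 with siControl. The groups did not overlap, and the means differed by 27.2 points (53.7 ± 5.88 with siChst7 and 26.4 ± 0.974 with siControl, SD, n = 2 each). Leaving out any single library gave 23.0 to 31.2 points, but a region picked for no overlap could hardly change sign that way. A stronger region 13.1 kb from the gene (chr17:12782798-12783733) stood at 74.9 and 85.0 with siChst7 and at 66.8 and 72.2 with siControl, a difference of 10.4 points that was 5.14 without siChst7 replicate 2. The neighbouring region at 34.9 kb stood at 84.4 and 47.9 with siChst7 and at 49.3 and 43.6 with siControl, so the groups overlapped and siChst7 replicate 1 alone was high. The next region, at 40.5 kb, went the other way, at 78.2 and 45.7 with siChst7 and at 79.6 and 71.7 with siControl, a difference of -13.7 points with overlap.

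Grb10 encodes an adaptor that dampens insulin and IGF receptor signalling. Its 12 regions included one ranked near the top by fold enrichment, inside the gene towards its far end (chr11:11939479-11940076). Fold enrichments there were 22.4 and 20.4 with siChst7 and 21.6 and 22.9 with siControl. Their percentiles were 99.7 and 99.2 with siChst7 and 99.3 and 99.6 with siControl. By −log10 q this region stood lower, at percentiles 90.4 and 85.6 with siChst7 and 87.2 and 88.1 with siControl. The start of Grb10 was weak beside it: the region there (chr11:12037154-12037409) had fold enrichments of 6.52 and 6.12 with siChst7 and 6.51 and 6.42 with siControl, at percentiles 22.4 to 24.6 over all libraries. Its summits lay 113 to 183 bases inside the gene and its edge 0.011 to 0.035 kb inside, so the peak met the start window without covering the start itself. The second annotated start of Grb10 had no peak, the nearest being 9.05 to 9.20 kb away.

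Another region inside Grb10 stood lower with siChst7 (chr11:11973311-11973819). Its fold enrichments were 10.8 and 6.85 with siChst7 and 12.7 and 12.4 with siControl, and its percentiles 64.1 and 29.5 with siChst7 and 74.3 and 70.7 with siControl. The groups did not overlap and the means differed by -25.7 points, but the siChst7 replicates lay far apart: without replicate 2 the difference was -7.76 points, and without replicate 1 it was -42.3.

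Plagl1 encodes a zinc finger transcription factor that acts on other imprinted genes. The region over its start (chr10:13090450-13091406), which also covers the start of the non-coding gene Hymai, had fold enrichments of 13.2 and 12.6 with siChst7 and 11.6 and 12.8 with siControl. Its percentiles were the highest of the start regions of the 10 genes, at 79.4 and 77.6 with siChst7 and 66.8 and 73.2 with siControl. Both siChst7 values were above both siControl values, with means of 78.5 ± 1.30 and 70.0 ± 4.52 (siChst7 and siControl, SD, n = 2 each). A weaker region 10.3 kb before the gene (chr10:13080198-13080568) was called with siChst7 alone, at 5.95 and 4.03 fold and a −log10 q of 9.01 and 3.46, so that call was lost at a minimum −log10 q of 5 or 10. Another 3.32 kb before the gene was called in siControl replicate 1 alone, at 6.09 fold.

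Dlk1, which encodes a membrane protein of the Notch ligand type that holds back adipocyte differentiation, and Meg3, the non-coding RNA gene expressed from the maternal copy of the same cluster, had bare bodies. The 153.7 kb stretch around them took in both genes and the whole interval between them, where the imprinting control region of the cluster lies. Dlk1 had 3 regions in all 4 libraries, before the gene. The one nearest its start (chr12:109441159-109441857, 10.6 kb from the gene) had fold enrichments of 11.9 and 11.3 with siChst7 and 9.99 and 12.0 with siControl. The highest by the mean over all 4 libraries (chr12:109417549-109418947) stood at percentiles 66.4 and 72.9 with siChst7 and 69.3 and 70.3 with siControl, with means of 69.7 and 69.8. A weak region 21.9 kb from the gene (chr12:109430116-109430597) stood at 16.9 and 18.1 with siChst7 and at 9.78 and 1.59 with siControl, a difference of 11.8 points. It was 7.95 without siControl replicate 2 and 4.12 when regions were ranked by −log10 q instead of fold.

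Meg3 had 2 regions, both inside the neighbouring gene Rtl1 and both called in all 4 libraries. The nearer one (chr12:109595573-109596125, 23.8 kb from Meg3) stood at percentiles 45.3 and 23.1 with siChst7 and 31.3 and 56.9 with siControl. The groups overlapped there. The other stood at 17.4 and 19.3 with siChst7 and at 16.5 and 5.35 with siControl.

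Cdkn1c encodes p57Kip2, an inhibitor of cyclin-dependent kinases that restrains growth. Its 2721 bp body had no region, whereas 9 regions lay on the side towards Slc22a18 and Phlda2, other imprinted genes of the cluster. The nearest (chr7:143463864-143464386, 2.81 kb from the gene) had fold enrichments of 8.69 and 8.03 with siChst7 and 8.52 and 7.62 with siControl. A region 8.81 kb from the gene, the highest of these by the mean over all 4 libraries though not within either siRNA, stood at 41.2 and 40.2 with siChst7 and 42.8 and 43.2 with siControl, a difference of -2.30 points without overlap. Inside Slc22a18 (chr7:143480468-143481069) the percentiles were 25.8 and 36.6 with siChst7 and 40.8 and 59.0 with siControl. The means there differed by -18.7 points (31.2 ± 7.61 with siChst7 and 49.9 ± 12.9 with siControl, SD, n = 2 each), and by -9.58 without siControl replicate 2.

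Mest, a gene of the hydrolase family expressed in embryonic mesoderm, had 3 regions. It had no peak at any of its 3 annotated starts, the nearest being 7.60 kb away in siChst7 replicate 2 and 39.6 kb away in the other libraries. Its strongest region lay over the start of the neighbouring centrosomal gene Cep41 (chr6:30693160-30693943), with fold enrichments of 14.5 and 17.2 with siChst7 and 15.9 and 17.4 with siControl. Also inside Cep41, a region 45.9 kb from Mest (chr6:30687193-30687604) was called with siChst7 alone, at 5.19 and 4.92 fold. It lost that call at a minimum −log10 q of 10 and when merged peaks had to share 50% of the shorter one. Peg3, a zinc finger gene linked to growth and maternal behaviour, had no region within 50 kb, as did 13.2% of protein-coding genes. Its nearest peak lay 210 and 293 kb away with siChst7 and 210 and 207 kb away with siControl.

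A region counted as called with only 1 siRNA when both libraries of that siRNA had it and neither library of the other did. Of the 62 regions, 35 (56.5%) were called in all 4 libraries, against 62.0% of all regions. Regions called in both siChst7 libraries and no siControl library numbered 2, at Mest and Plagl1 (1.24% of all regions are so called). One region, at H19, was called in both siControl libraries and no siChst7 library (2.84% of all regions). These counts rest on few regions and were not tested against the shares over all regions. The other 24 were called in 1 library (10), in 3 (11) or in 1 library of each siRNA (3). Of the 10, siChst7 replicates 1 and 2 alone had 1 and 1, and siControl replicates 1 and 2 alone had 5 and 3. Of the 11, 4 lacked siChst7 replicate 2 and 4 lacked siControl replicate 1. Peaks at the 10 genes made up 0.0686% and 0.0711% of the siChst7 lists and 0.0664% and 0.0714% of the siControl lists. The means were 0.0699% ± 0.00176 with siChst7 and 0.0689% ± 0.00357 with siControl (SD, n = 2 each), a difference of 0.000969 points (exact permutation test, two-sided, p = 1). With 2 libraries against 2, this test cannot give a p below 0.333.

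Ranks differed in both directions. Of the 35 regions called in all 4 libraries, 9 had a percentile higher in both siChst7 libraries than in either siControl library and 5 a lower one, against 19.5% and 18.4% of all such regions. A shift of at least 10 points in the means went with 3 of the higher ones (2 at Igf2r, 1 at Dlk1) and 3 of the lower ones (at H19, Cdkn1c and Grb10), against 7.84% and 7.91% of all such regions. The higher ones lay at Igf2r (4), Dlk1 (2), Meg3, Cdkn1c and Plagl1, and the lower ones at Cdkn1c (3), H19 and Grb10. The median percentile of the 35 was 43.0 and 40.9 with siChst7 and 41.8 and 43.2 with siControl, a little under the middle of the ranking.

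**Figure D3:**
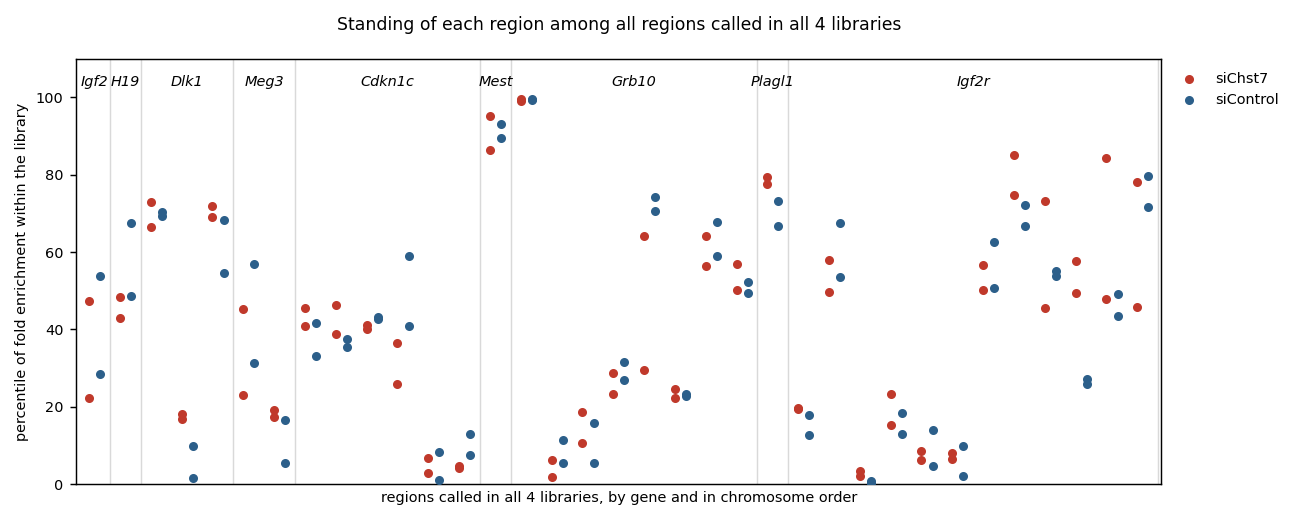
Percentile of the fold enrichment within each library (y axis) for the 35 regions of the imprinted growth genes called in all 4 libraries (x axis, by gene and in chromosome order), with siChst7 in red left of siControl in blue, 1 point per library. The Grb10 region above 99 is stable in every library, and the Igf2r region at 49.5 and 57.8 with siChst7 against 27.1 and 25.8 with siControl has the largest difference of means without overlap.

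Lists of related genes were read by the same measure of gene ends. Of 55 other imprinted genes matched to the annotation, 25 (45.5%) had an accessible end in all 4 libraries and 28 had none. Those with one included Kcnq1ot1, the non-coding RNA gene whose start is the control region of the Cdkn1c cluster, and Phlda2, Ascl2 and Cd81. Those with none included Kcnq1, Slc22a18, Tspan32 and Ins2, although Gnas and Commd1, also without one, had a peak over a start window in all 4 libraries. Over start windows, Kcnq1ot1 and Cd81 had a peak in all 4 libraries, and Phlda2 and Ascl2 in none. Of 28 IGF signalling genes, 18 (64.3%) had an accessible end, among them the receptor genes Igf1r and Insr and the adaptor genes Irs1 and Irs2. Another 8 had none, among them Igf1, Ins1 and the binding protein genes Igfbp2 and Igfbp5. Igf1 nevertheless had a peak over another annotated start in all 4 libraries. Irs1 and Irs2 also had a peak over a start window in all 4 libraries, and Igf1r in 2. Insr had no start entry. The 20 imprint maintenance genes, as the list is called here, also include genes that set or remove DNA methylation, such as Dnmt3a and the Tet genes. Of these 20, 14 (70.0%) had an accessible end, beginning with Ctcf, Zfp445, Trim28 and Dnmt3b, and 6 had none. Of those 6, Zfp57 and Dnmt1 had a peak over a start window in all 4 libraries. Ctcf, Zfp445 and Trim28 had such a peak too, whereas Dnmt3b had none there in any library. These lists were not tested against each other.

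**Figure D4:**
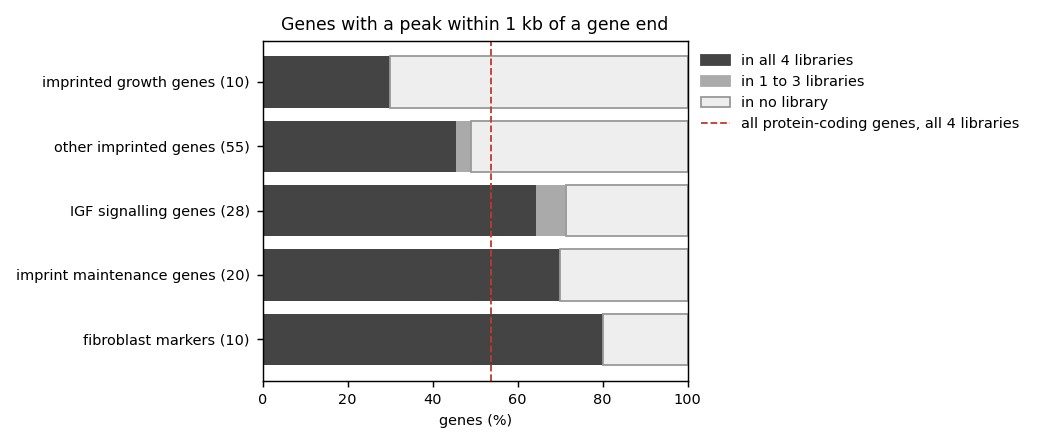
Share of genes (x axis, %) whose ends had a peak no more than 1 kb away in all 4 libraries (dark), in 1 to 3 (grey) or in none (light), for the imprinted growth genes, other imprinted genes, IGF signalling genes, imprint maintenance genes and fibroblast markers, with the number of genes in brackets; the dashed line marks all protein-coding genes (53.8%). The imprinted growth genes, at 3 of 10, have the lowest share of the 5 lists drawn and the fibroblast markers, at 8 of 10, the highest. The imprinted growth genes include the non-coding H19 and Meg3, which the dashed line does not cover.

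Start windows were also searched on both strands for short motifs of factors at work in these cells or at imprinted loci. H19 and Cdkn1c have no start window here and were not searched. The YY1 letters, GCCATNTT, were found in no start window of the other 8 genes or Airn and occur in 6.05% of all start windows. AP-1, whose letters are TGANTCA, and GATA factors, whose letters are AGATAA, had no match either, against 7.81% and 11.2% of all windows. The core motif of CTCF, a factor that binds imprinting control regions, had none against 0.402%. With so few windows, the lack of a match at such rates says little. The TEAD letters (GGAATG, in 14.7% of all windows) occurred in the Peg3 window at position -84 from the start and in 3 of the 4 Igf2 windows. The MEF2 motif (3.69%) occurred at the second Grb10 start and the T-box letters (AGGTGTGA, 1.28%) at the second Meg3 start. A short CTCF-type string (CCCTC, 66.0%), which can overlap the CTCF core, was too common to set windows apart. Windows that matched the TEAD, MEF2 or T-box letters had no peak in any library, and the 4 windows met by peaks had none of these matches. These are letter matches, not binding, and were not tested.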

How the data were processed

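Per the labels, the cells were transfected, induced and frozen, tagmented after thawing with a commercial kit, and paired-end sequenced at 75 bp; the labels give a target depth, not the depth reached. Tools listed in the submitters' processing notes are MACS3, Bowtie, HOMER, SAMtools and bedtools, with the build mm10. Their versions and roles, duplicate removal and any Tn5 shift: not given in the sources used here. The deposited lists hold, per peak, a fold enrichment (a ratio to the local background), −log10 p and q, a score close to 10 times the −log10 q, and a summit. They were called per library, with peak numbers running without a gap. These are the authors' values and were used within a list. A percentile compares libraries, since it ranks the same regions in each.

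Peaks on chromosomes 1 to 19, X and Y were merged at 1 bp overlap with Python 3.11.15 and pandas 2.3.3. Gene positions and start windows came from RefSeq (GRCm38.p6). The steps were checked on simulated peaks. Genes and lists were chosen with earlier results of these data known. Every gene was named, with its region at or nearest the start, its highest-ranked region, regions called with only 1 siRNA and percentile shifts of at least 10 points without overlap. Examples from lists follow list order.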

Additional observations from a re-analysis of the deposited data

How the results depend on the processing

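Peaks over a start in all 4 libraries stood at 3 genes under every alternative but summit windows of 200 bp, which gave 2, and 6 to 7 genes had a bare body throughout. These alternatives were added after the data were seen. Counts of regions called with only 1 siRNA rest on few regions, and leaving out a library widens them by construction, since the library that remains then decides. For siChst7 the count of 2 became 1 at a −log10 q of at least 5, 1 at 10 and 0 with flanks of 10 kb, and 3 to 6 when a library was left out. For siControl the count of 1 became 2 at a −log10 q of at least 5, with equal list length, with summit windows and with flanks of 100 kb, 0 with flanks of 10 kb, and 2 to 6 when a library was left out. Flanks of 10 kb left 18 regions called in all 4 libraries by construction. The difference in the share of peaks turned to -0.00012 points with flanks of 100 kb and ran from -0.00155 (without siControl replicate 1) to 0.00349 when a library was left out, with -0.000276 without siChst7 replicate 2. No exact p was below 0.667.

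The median percentile differed by -0.597 points (siChst7 minus siControl). It was -3.81 and -4.4 at a −log10 q of at least 5 and 10, -3.83 with equal list length, 0.844 with summit windows, 3.43 with an overlap of 50% of the shorter peak, -4.57 and -4.19 with flanks of 10 and 100 kb, and -0.159 to 4.4 when a library was left out; the cause was not tested. Of the regions called with only 1 siRNA, those at H19, Mest and Plagl1 kept their call under 11, 10 and 10 of 12 alternatives. Leaving out a library or changing the flanks could not end these calls by construction. None of the 3 was kept at a −log10 q of at least 10, so the regions counted there are others. The 6 named shifts kept their sign under every alternative that gave a value. They had been picked for no overlap between the siRNAs, so leaving out a library could hardly reverse them. Changing the flanks left them as they were by construction. With the replicate number as a block the share difference was 0.000969 points (exact sign-flip permutation p = 1). The labels do not say whether replicate numbers pair the libraries. The correlation of deviations between libraries of the same number was 0.0118. With 2 libraries per siRNA it is a single contrast, so it cannot settle this. Depth is unknown, so for a region missing from a list, absence and a signal under the detection limit cannot be told apart.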

Other observations

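Regions called with only 1 siRNA also lay in listed genes outside the 10, counting each body with 1 kb on either side. Over all protein-coding genes, 3.05% held such a region with siChst7 alone and 6.13% with siControl alone. Of 55 other imprinted genes, 2 held one with siChst7 alone (Begain and Gab1) and 4 with siControl alone (Kcnq1, Gnas, Trappc9 and Gab1). Of 28 IGF signalling genes, 2 did so with siChst7 alone (Igf1 and Insr) and 3 with siControl alone (Igf1, Irs1 and Akt1). Of 20 imprint maintenance genes, Tet1, which oxidises methylated cytosine, held one with siControl alone. The marker genes held such regions too: Rbfox3 (neural) of both kinds, Actn2 (cardiac) with siChst7 alone, and Fbln2 (fibroblast) and Itgam (immune) with siControl alone. The one at Itgam alone lay within 1 kb of a gene end. These counts are a description and were not tested.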
